A study of Mus musculus with 6 samples.

Results

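Genes of PPAR alpha, fatty acid oxidation and ketogenesis were examined in the livers of HFD-fed mice with or without esculetin. The 37 genes were chosen by name from the mitochondrial and peroxisomal oxidation pathways, ketone body metabolism and the targets of PPAR alpha, and were matched by Ensembl identifier among the 55357 genes of the count table. All 37 had enough counts to be tested, as did 14433 genes in all. Liver RNA was sequenced in 3 vehicle libraries and 3 esculetin libraries of wild-type male C57BL6/J mice aged 8 to 9 weeks. The vehicle group received 2.5% Tween-80 and the esculetin group received esculetin, a coumarin compound, each by oral gavage for 7 days. Both groups ate a control diet with 10% of kcal from fat for 4 days and then, for 3 days, an HFD with 60%, so no comparison of the diets can be made within these libraries. The labels give the dose of the same esculetin libraries in 2 ways, 180 mg/kg/d by their titles and 90 mg/kg/d by their treatment entry. The names of their count columns also hold 180. As the labels differ, no dose is attached to the group. The livers of a pair of mice were pooled into each library, so p-values measure the spread between pools.

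Fatty acids that reach the hepatocyte are joined to coenzyme A and carried into mitochondria as carnitine esters, where each round of beta-oxidation shortens the chain and yields acetyl-CoA, which the liver can turn into ketone bodies. Very long and branched chains are first shortened in peroxisomes, and the microsomal omega-hydroxylases open a side route from the far end of the chain. PPAR alpha is the nuclear receptor that senses fatty acids in the liver and switches on genes of all these steps, most strongly during fasting or after its drug ligands.

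Total counts per library lay between 27957713 and 34920922, and each esculetin library was deeper than each vehicle library. Levels are given as CPM, the counts of a gene relative to the size of its library after TMM normalization, and 3 counts corresponded to 0.0865 to 0.109 CPM. All 6 hepatocyte markers used to check the tissue were detected in every library, with a summed level of 76080 to 83390 CPM. A gene was called where edgeR's quasi-likelihood test gave an unadjusted p-value under 0.05 and the fold change was over 1.5. By this rule 3.13% of all tested genes were called, 1.37% as higher and 1.76% as lower with esculetin, and the Benjamini-Hochberg adjusted p-value over all genes was under 0.05 for 0.0416% of them. In bulk liver, fewer cells of a type and less RNA per cell cannot be told apart.

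Among the 37 genes 1 was called, and it rose: Vnn1, with none of the 37 called lower. Without the fold threshold, 9 of the 37 genes had an unadjusted p-value under 0.05 with a higher level in the esculetin group, against 6.53% of all tested genes, and none had one with a lower level, against 5.32%. By edgeR none of the 37 had an adjusted p-value under 0.05, and by DESeq2 1 had, Acaa1a, where the share of all tested genes was not taken. The 3 esculetin libraries lay above the 3 vehicle libraries for 9 genes, against 9.2% of all tested genes, and below them for none, against 8.24%. The fitted log2 fold change, esculetin over vehicle, was above 0 for 30 genes and below 0 for 7, where it was above 0 for 48.45% of all tested genes. Its median was 0.16 over the 37 and -0.0080 over all tested genes. Vehicle 1 was the highest vehicle library for 34 of the 37, so these signs are not separate observations. Most of the differences were small, from -0.17 for Abcd3 to 0.90 for Cyp4a10. These counts depended on single libraries. Without vehicle 1, 9 genes were called, all higher, where 1.66% of all tested genes were, and 21 had an unadjusted p-value under 0.05, where 5.91% of all tested genes had one with a higher level. Without esculetin 3 no gene was called and 5 had an unadjusted p-value under 0.05 with a higher level, where 1.34% and 6.37% of all tested genes were higher by these rules. Without vehicle 2 the counts were 1 and 4, where the shares of all tested genes were 1.29% and 4.84%.

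**Figure D1:**
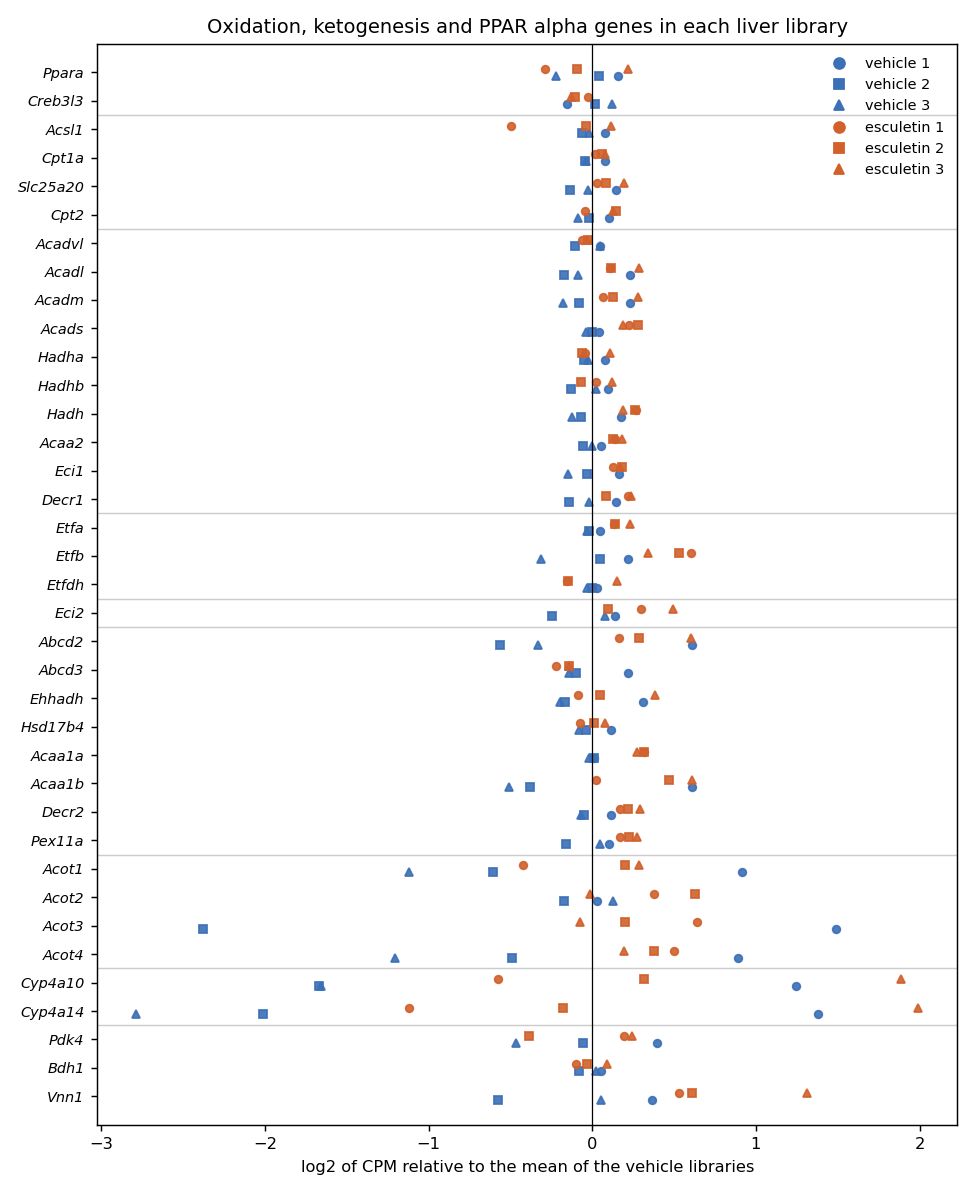
The CPM of each of the 37 genes in each library, as log2 of its ratio to the mean of the 3 vehicle libraries, with blue symbols for vehicle and orange symbols for esculetin libraries and grey lines between role groups. Most genes lie close to 0 in all libraries, while Acot1, Acot3, Acot4, Cyp4a10 and Cyp4a14 spread widely with vehicle 1 to the right of the other vehicle libraries. Acot3 had 0 counts in vehicle 3 and has no symbol there.

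The regulators did not differ between the groups beyond the spread of the libraries. Ppara, which encodes PPAR alpha itself, was at 113, 104 and 86.7 CPM in vehicle 1, 2 and 3 and at 82.7, 95.0 and 118 CPM in esculetin 1, 2 and 3. The highest and the lowest of the 6 libraries were both esculetin libraries, and the log2 fold change was -0.041 ± 0.14 (SE, edgeR adjusted p = 0.940). Creb3l3, which encodes a liver transcription factor released from the endoplasmic reticulum that works with PPAR alpha in fasting, was at 220.5, 248 and 266 CPM with vehicle and at 241, 228 and 224 CPM with esculetin. The esculetin libraries fell within the range of the vehicle libraries, with a log2 fold change of -0.085 ± 0.087 (SE, edgeR adjusted p = 0.750). Exons of Ppara overlap those of Cdpf1 on the other strand, and the strand setting of the counting is not given in the sources used here.

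PPAR alpha binds DNA with its partner RXR at direct repeats of the hexamer AGGTCA set 1 base apart, and the promoters of the 37 genes were searched for this element to show where such letters lie. The motif AGGTCANAGGTCA was searched on both strands from 1000 bases before to 200 bases after the start of the Ensembl canonical transcript in GRCm39. With at most 2 mismatches among the 12 fixed bases it was present in 10 of 37 promoters, or 27.03%, and in 14.22% of the promoters of the 12590 protein-coding genes tested. An exact match was present in none of the 37 and in 0.135% of all. A match is a description of the sequence and not a measured binding site. Only 1 best match was kept per promoter, and the coordinates below include 10 bases on each side of the match. Of the 7 of these sites that lie before a start, that of Vnn1 was the nearest to it, at 59 bases, on the minus strand at chr10:23770517-23770549. Those of Acadm on the minus strand at chr3:153650596-153650628, of Acaa1b on the plus strand at chr9:118987094-118987126 and of Ehhadh on the plus strand at chr16:21607460-21607492 lay 343, 955 and 919 bases before the start. These 4 are shown because they belong to the called gene and to genes of both oxidation compartments, 5′ to 3′, with the 13 bases of the match in capitals and 10 bases on each side.
Vnn1: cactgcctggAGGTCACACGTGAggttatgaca
Acadm: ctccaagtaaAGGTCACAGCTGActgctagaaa
Acaa1b: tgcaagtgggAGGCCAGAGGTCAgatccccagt
Ehhadh: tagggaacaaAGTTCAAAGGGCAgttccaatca

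None of the 4 genes of fatty acid activation and the carnitine shuttle had an unadjusted p-value under 0.05. Cpt1a, the outer membrane carnitine palmitoyltransferase that limits the entry of long-chain fatty acids into mitochondria, was at 439, 404 and 406 CPM with vehicle and at 421, 433 and 439.6 CPM with esculetin. The groups overlapped, the lowest and the highest library differed little, and the log2 fold change was 0.050 ± 0.073 (SE, edgeR adjusted p = 0.836). Slc25a20, the carrier that exchanges acylcarnitine for carnitine across the inner membrane, had a log2 fold change of 0.10 ± 0.090 (SE). Cpt2, which returns the acyl group to coenzyme A inside the mitochondrion, had one of 0.078 ± 0.084 (SE). Acsl1, the main long-chain acyl-CoA synthetase of the liver, had one of -0.12 ± 0.14 (SE), with its lowest level of 588 CPM in esculetin 1 and its highest of 899 CPM in esculetin 3.

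The 10 genes of the mitochondrial beta-oxidation spiral had a median log2 fold change of 0.16. For 9 of them it was above 0, as for 48.45% of all tested genes, and the 2 with an unadjusted p-value under 0.05 act on short and medium chains. Acads, the short-chain acyl-CoA dehydrogenase, was at 108, 105 and 102 CPM with vehicle and at 123, 127 and 119.5 CPM with esculetin. The 3 esculetin libraries all lay above the vehicle libraries, by a log2 fold change of 0.23 ± 0.070 (SE) with an unadjusted p-value of 0.00809 and an edgeR adjusted p = 0.252. Hadh, the short- and medium-chain hydroxyacyl-CoA dehydrogenase, was at 281, 238 and 228 CPM with vehicle and at 299, 299 and 284 CPM with esculetin. Its groups did not overlap, although vehicle 1 came within 1% of the lowest esculetin library, and the log2 fold change was 0.24 ± 0.092 (SE) with an unadjusted p-value of 0.0267 and an edgeR adjusted p = 0.354.

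For the other genes of the spiral the unadjusted p-value was above 0.05. Acadvl for very long chains had a log2 fold change of -0.040 ± 0.075, Acadl for long chains one of 0.17 ± 0.11 and Acadm for medium chains one of 0.16 ± 0.11 (SE). Hadha and Hadhb encode the alpha and beta subunits of the trifunctional protein, which handles long chains at the inner membrane. Their log2 fold changes were 0.0022 ± 0.080 and 0.028 ± 0.086 (SE), and the groups overlapped for both. The pair lies head to head on chromosome 5 with overlapping exons, and 53.2% of the 100-base stretches of the Hadhb transcript also occur in its pseudogene Hadhb-ps or in Gm9108, so their counts are uncertain. Acaa2, the thiolase that ends each mitochondrial round, was higher in all 3 esculetin libraries than in all 3 vehicle libraries, by a log2 fold change of 0.15 ± 0.073 (SE) with an edgeR adjusted p = 0.460. Eci1, an enoyl-CoA isomerase, and Decr1, a dienoyl-CoA reductase, serve unsaturated chains, and their log2 fold changes were 0.16 ± 0.089 and 0.18 ± 0.091 (SE). For both, vehicle 1 lay within the range of the esculetin libraries.

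The electron transfer flavoprotein takes electrons from the acyl-CoA dehydrogenases to the respiratory chain, and both of its subunits were among the genes with an unadjusted p-value under 0.05. Etfa, the alpha subunit, was at 339, 324 and 322 CPM with vehicle and at 360.4, 362 and 385 CPM with esculetin. Etfb, the beta subunit, was at 13.2, 11.7 and 9.15 CPM with vehicle and at 17.2, 16.4 and 14.4 CPM with esculetin. The groups did not overlap for either gene. For Etfa the log2 fold change was 0.17 ± 0.072 (SE) with an unadjusted p-value of 0.0431 and an edgeR adjusted p = 0.398. The unadjusted p-value of Etfa was under 0.05 in 5 of 14 alternatives, and with 1 library left out only without vehicle 1. For Etfb the log2 fold change was 0.49 ± 0.14 (SE) with an unadjusted p-value of 0.00677 and an edgeR adjusted p = 0.242, just under the fold threshold of 1.5. Without vehicle 1 Etfb was called, with a log2 fold change of 0.61 ± 0.15 with an unadjusted p-value of 0.00273. Without vehicle 3 it was lowest, at 0.36 ± 0.13 with an unadjusted p-value of 0.0200. Per kilobase of exon, Etfb was far below its partner, at 7.29 against 51.3 CPM per kb in the vehicle group. Of the 100-base stretches of the Etfb transcript, 65.2% also occur in Etfbl, a gene model that overlaps it on the same strand and had 0 counts in all libraries, so part of the Etfb reads may not have been counted and its level is uncertain. Etfdh, the oxidoreductase that receives the electrons in the inner membrane, had a log2 fold change of -0.043 ± 0.095 (SE).

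Eci2, an enoyl-CoA isomerase found in both peroxisomes and mitochondria, was at 138, 105 and 132 CPM with vehicle and at 154, 134 and 176 CPM with esculetin. Vehicle 1 was above esculetin 2, so the groups overlapped. Its log2 fold change was 0.31 ± 0.12 (SE) with an unadjusted p-value of 0.0348 and an edgeR adjusted p = 0.380. Its exons overlap a non-coding gene on the other strand.

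Of the 8 peroxisomal genes, 7 had a log2 fold change above 0, where 48.45% of all tested genes had. With groups that did not overlap, 3 had an unadjusted p-value under 0.05. Acaa1a, a peroxisomal thiolase at chr9:119168742-119182956 on the plus strand, was at 111, 111 and 109 CPM with vehicle and at 137, 137 and 133 CPM with esculetin. The libraries of each group were nearly equal, and the esculetin group was 1.23 times the vehicle group, a log2 fold change of 0.30 ± 0.067 (SE) with an unadjusted p-value of 0.00125 and an edgeR adjusted p = 0.152. Decr2, the peroxisomal dienoyl-CoA reductase, was at 216, 192 and 189.9 CPM with vehicle and at 224, 232 and 244 CPM with esculetin, with a log2 fold change of 0.23 ± 0.081 (SE) with an unadjusted p-value of 0.0184 and an edgeR adjusted p = 0.313. Pex11a, a membrane protein that drives the division of peroxisomes, was at 62.3, 51.9 and 60.0 CPM with vehicle and at 65.3, 67.9 and 70.1 CPM with esculetin, with a log2 fold change of 0.22 ± 0.086 (SE) with an unadjusted p-value of 0.0278 and an edgeR adjusted p = 0.357. Over the alternatives the adjusted p-value of Acaa1a lay between 0.028, with DESeq2, and 0.473. Exons of Acaa1a overlap Myd88 and those of Pex11a overlap Wdr93 on the other strand.

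Acaa1b, the second peroxisomal thiolase, lies near Acaa1a on chromosome 9 at chr9:118977091-118986161 on the minus strand and shares 22.6% of its 100-base transcript stretches with it, so reads may have been lost from or split between them. Its vehicle libraries were spread further apart than those of Acaa1a. Acaa1b was at 390.0, 196 and 179.8 CPM with vehicle and at 259.5, 354 and 389.7 CPM with esculetin. Vehicle 1 matched the highest esculetin library and the other 2 vehicle libraries lay below all esculetin libraries. Over all libraries its log2 fold change was 0.39 ± 0.27 (SE, edgeR adjusted p = 0.611), and without vehicle 1 it was 0.83 ± 0.16 with an unadjusted p-value of 0.000486. It was smaller without vehicle 3, vehicle 2 or esculetin 3, at 0.19, 0.23 and 0.27. Ehhadh, the bifunctional enzyme of the classical peroxisomal pathway, was at 193, 139 and 136 CPM with vehicle and at 147, 161 and 204 CPM with esculetin, again with vehicle 1 near the top. Its log2 fold change was 0.13 ± 0.15 (SE, edgeR adjusted p = 0.791) and without esculetin 3 it was -0.015 ± 0.15 (SE). Hsd17b4, the bifunctional enzyme for branched and very long chains, had a log2 fold change of 0.0056 ± 0.083 (SE). The transporters that bring acyl-CoA into the peroxisome differed in sign, with 0.36 ± 0.27 for Abcd2 and -0.17 ± 0.10 for Abcd3 (SE), and neither had an unadjusted p-value under 0.05. Without vehicle 1 Abcd2 was called, with a log2 fold change of 0.81 ± 0.16 with an unadjusted p-value of 0.000818, and its lowest value over the alternatives was 0.15.

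Peroxisomal and mitochondrial steps were then set side by side. The median log2 fold change was 0.23 for the 8 peroxisomal genes and 0.15 for the 16 mitochondrial genes, beside -0.0080 for all tested genes. Without vehicle 3 the mitochondrial median was 0.093, and without vehicle 2 the peroxisomal one was 0.15. The mitochondrial genes had a log2 fold change above 0 in 14 of 16, an unadjusted p-value under 0.05 in 4 and groups that did not overlap in 5. For the peroxisomal genes these counts were 7 of 8, 3 and 3. Each gene with such a p-value or without overlap was higher with esculetin, and of all tested genes 6.53% were higher with such a p-value and 9.2% higher with no overlap. The log2 fold change was above 0 for 48.45% of all tested genes. Single genes ranged from -0.17 to 0.39 in the peroxisome and from -0.043 to 0.49 in the mitochondrion, so the ranges overlapped. In each library the median log2 ratio of a compartment to the vehicle mean was taken. For the mitochondrial genes it was 0.0994, -0.0524 and -0.0332 in vehicle 1, 2 and 3 and 0.0865, 0.12 and 0.19 in esculetin 1, 2 and 3. For the peroxisomal genes it was 0.17, -0.13 and -0.11 with vehicle and 0.0943, 0.22 and 0.28 with esculetin. Vehicle 1 lay above esculetin 1 in both compartments, so the groups overlapped in both. The peroxisomal median minus the mitochondrial one was 0.067, -0.080 and -0.081 with vehicle and 0.0078, 0.10 and 0.097 with esculetin. Vehicle 1 lay within the esculetin range here too, and a difference between the compartments was not seen beyond the spread of the libraries.

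**Figure D2:**
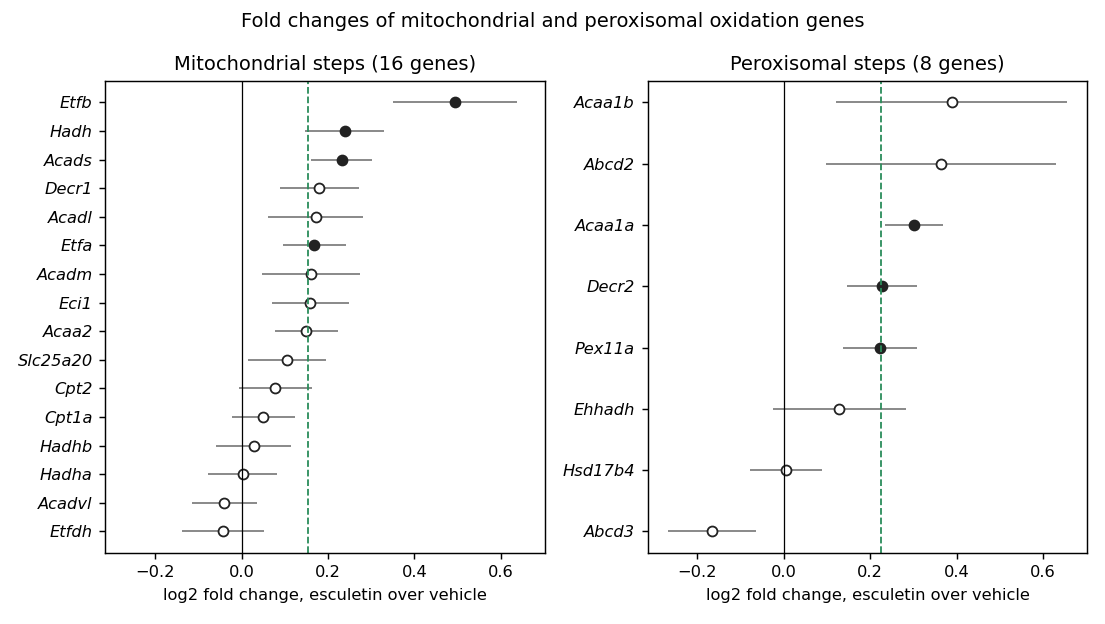
The log2 fold change, esculetin over vehicle, of the 16 mitochondrial and 8 peroxisomal genes, with bars for the SE, filled circles for an unadjusted p-value under 0.05, a solid line at 0 and a green dashed line at the median. The filled circles number 4 and 3, and the medians of 0.15 and 0.23 lie within the range of either compartment.

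Levels per kilobase spread the genes over a wide range. The length was that of all annotated exons of a gene merged, which can exceed that of the transcript in use. In the vehicle group Acaa2 stood highest at 118 CPM per kb, followed by Abcd3 at 106. The lowest were Acot2 at 0.389, Acot3 at 0.441 and Pdk4 at 0.825 CPM per kb. Per kilobase of the canonical transcript Acaa2 was at 436 and Abcd3 at 194 CPM per kb, and these 5 genes held the same places, but genes between them did not: Hsd17b4 was at place 3 by merged exons and at place 8 by the transcript.

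The acyl-CoA thioesterases Acot1, Acot2, Acot3 and Acot4 release free fatty acids from coenzyme A in the cytosol, the mitochondrion and, for the last pair, the peroxisome. They lie together on chromosome 12 between bases 84034428 and 84107176 and share stretches of transcript sequence with each other or with a readthrough model, in 34.5% of the 100-base stretches for Acot3 and 5.83% for Acot4, so their counts are uncertain. With all 6 libraries, none of the 4 reached an unadjusted p-value under 0.05. Acot4 was at 50.0, 19.2 and 11.7 CPM with vehicle and at 38.2, 34.97 and 30.8 CPM with esculetin. The vehicle libraries held both the highest and the lowest values, and the esculetin libraries lay close together between them. For Acot4 the log2 fold change was 0.36 ± 0.40 (SE, edgeR adjusted p = 0.774), and without vehicle 1 it was 1.16 ± 0.19 with an unadjusted p-value of 0.000203. Its lowest value over the alternatives was 0.0073, without vehicle 3. That of Acot1 was 0.056 ± 0.44 (SE), and without vehicle 1 it was 0.89 ± 0.28 with an unadjusted p-value of 0.0117. For Acot1 the sign turned without vehicle 2, vehicle 3, esculetin 2 or esculetin 3, down to -0.28 without vehicle 3. Acot3 was at 4.94, 0.338 and 0 CPM with vehicle and at 2.74, 2.02 and 1.67 CPM with esculetin, again with vehicle 1 highest of all. Vehicle 1 did not stand apart for Acot2. Its level stayed between 0.829 and 1.44 CPM in all libraries, and its log2 fold change was 0.35 ± 0.31 (SE).

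Cyp4a10 and Cyp4a14, the microsomal omega-hydroxylases, are among the strongest known targets of PPAR alpha in mouse liver and had the widest spread among the 36 genes with counts in every vehicle library. Cyp4a10 was at 48.1, 6.38 and 6.46 CPM with vehicle and at 13.6, 25.3 and 75.1 CPM with esculetin. Cyp4a14 was at 37.4, 3.56 and 2.08 CPM with vehicle and at 6.59, 12.7 and 57.1 CPM with esculetin. For both genes esculetin 3 was the highest library, vehicle 1 the second, and vehicle 2 and 3 the lowest. The highest vehicle library was 7.54 times the lowest for Cyp4a10 and 17.98 times for Cyp4a14. The log2 fold changes were 0.90 ± 0.79 (SE, edgeR adjusted p = 0.699) and 0.83 ± 0.98 (SE, edgeR adjusted p = 0.788), so the group difference was smaller than the spread within the groups. Both its size and its sign rested on single libraries. Without vehicle 1 the log2 fold change was 2.57 ± 0.63 with an unadjusted p-value of 0.00271 for Cyp4a10 and 3.16 ± 0.86 with an unadjusted p-value of 0.00516 for Cyp4a14. Without esculetin 3 it was -0.056 ± 0.77 and -0.57 ± 0.97 (SE), below 0 for both.

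The genes are neighbours on chromosome 4, Cyp4a10 at chr4:115375461-115390849 on the plus strand and Cyp4a14 at chr4:115343397-115353344 on the minus strand. Of the 100-base stretches of the Cyp4a10 transcript, 15.6% recur in Cyp4a32 or Cyp4a31, while the Cyp4a14 transcript shares none. Their promoters are shown with that of Vnn1, since these are the members with the largest fold changes. The 250 bases before the start were read from GRCm39, Cyp4a10 at chr4:115375211-115375460 and Vnn1 at chr10:23770336-23770585 on the plus strand and Cyp4a14 at chr4:115353345-115353594 on the minus strand. Single hexamers AGGTCA or TGACCT are in capitals. Cyp4a10 holds none, Cyp4a14 holds 1 at 87 bases before its start and Vnn1 holds 1 at 52 bases, which is part of its match above. Such a hexamer was present in 7 of the 37 promoters of this length, or 18.92%, and in 11.78% of all.
Cyp4a10: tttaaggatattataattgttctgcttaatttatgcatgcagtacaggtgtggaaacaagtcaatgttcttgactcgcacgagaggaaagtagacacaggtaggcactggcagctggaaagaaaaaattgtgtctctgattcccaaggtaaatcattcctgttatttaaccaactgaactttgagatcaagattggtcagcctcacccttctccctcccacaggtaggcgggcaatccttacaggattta
Cyp4a14: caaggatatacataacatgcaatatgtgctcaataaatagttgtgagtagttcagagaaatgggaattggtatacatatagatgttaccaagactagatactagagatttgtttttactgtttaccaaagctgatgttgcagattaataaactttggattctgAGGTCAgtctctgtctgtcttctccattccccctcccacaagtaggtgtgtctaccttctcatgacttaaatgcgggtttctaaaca
Vnn1: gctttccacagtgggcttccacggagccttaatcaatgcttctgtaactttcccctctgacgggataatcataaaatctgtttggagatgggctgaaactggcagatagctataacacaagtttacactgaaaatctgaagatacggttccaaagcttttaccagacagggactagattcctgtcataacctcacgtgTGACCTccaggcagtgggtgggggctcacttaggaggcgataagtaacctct

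Vnn1 was the called gene of the set. It encodes vanin-1, a membrane-anchored pantetheinase that yields cysteamine and the coenzyme A precursor pantothenate, and it is a known target of PPAR alpha in the liver. Vnn1, ENSMUSG00000037440, lies at chr10:23770586-23781241 on the plus strand. It was at 32.4, 16.9 and 26.1 CPM with vehicle and at 36.2, 38.3 and 62.5 CPM with esculetin. The esculetin libraries all lay above the vehicle libraries, and esculetin 3 stood well above the other 2. The means were 25.1 ± 7.81 and 45.7 ± 14.6 CPM (SD, n = 3 libraries each). Vnn1 had a log2 fold change of 0.86 ± 0.25 (SE) with an unadjusted p-value of 0.00663 and an edgeR adjusted p = 0.242. Without esculetin 3 it was 0.57 ± 0.21 with an unadjusted p-value of 0.0261, under the fold threshold, and without vehicle 1 it was 1.09 ± 0.26 with an unadjusted p-value of 0.00224. Over the alternatives its adjusted p-value lay between 1.51e-07, with no filter on low counts, and 0.549, without vehicle 2. With no filter the log2 fold change of Vnn1 was 0.88 ± 0.13 (SE), so the low p-value came from a smaller SE for the same counts.

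Pdk4 and Bdh1 stand for the fuel switch and for ketone bodies. Pdk4, a kinase that shuts off pyruvate dehydrogenase when fatty acids are burnt, was at 4.12, 3.01 and 2.26 CPM with vehicle and at 3.58, 2.39 and 3.70 CPM with esculetin, a low level in every library. The groups overlapped fully, with a log2 fold change of 0.040 ± 0.26 (SE, edgeR adjusted p = 0.972). Bdh1, the mitochondrial dehydrogenase that interconverts the ketone bodies acetoacetate and beta-hydroxybutyrate, was at 236, 215 and 231 CPM with vehicle and at 212, 223 and 242 CPM with esculetin. Its esculetin libraries included both the highest and the lowest level, and the log2 fold change was -0.012 ± 0.081 (SE, edgeR adjusted p = 0.973).

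**Figure D3:**
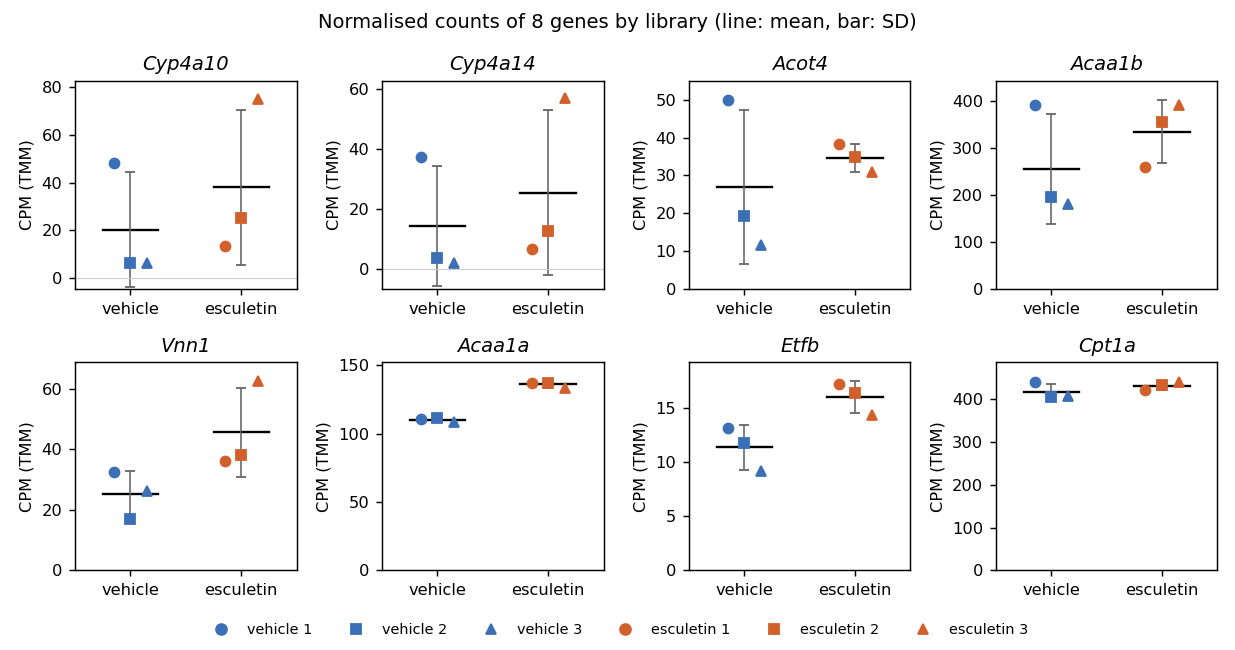
CPM after TMM scaling of 8 genes in each library, with a black line for the mean and a grey bar for the SD of the 3 libraries of a group. Acaa1a separates the groups with little spread, Etfb separates them with vehicle 1 near the esculetin libraries, Vnn1 separates them with esculetin 3 highest, and Cyp4a10, Cyp4a14, Acot4 and Acaa1b have vehicle 1 far above vehicle 2 and 3. Bars that reach below 0 show only that the SD exceeds the mean.

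Vehicle 1 was the highest of the 3 vehicle libraries for 34 of the 37 genes, or 91.89%, where it was so for 33.42% of all tested genes. Esculetin 3 was the highest esculetin library for 25 of the 37, or 67.57%, where it was so for 34.33% of all. The highest vehicle library was over 2 times the lowest for 6 of the 36 genes with counts in every vehicle library, or 16.67%, and for 11.83% of all. These were Cyp4a14, Cyp4a10, Acot4, Acot1, Abcd2 and Acaa1b, at 17.98, 7.54, 4.27, 4.10, 2.26 and 2.17 times. The median of this ratio was 1.23 over the 36 genes and 1.25 over all, so the large ratios were held by few of the genes. The summed level of 8 genes that are high in the fed state was also highest in vehicle 1, at 7282 CPM beside 4215 and 3131 in vehicle 2 and 3 and 3754 to 4855 in the esculetin libraries. Most of that sum was Scd1, at 5478 CPM in vehicle 1, while Srebf1 and Acaca were highest of the vehicle libraries in vehicle 2. None of these 8 had an unadjusted p-value under 0.05 between the groups, and all 8 were detected. The 8 fasting genes summed to 7116, 7166 and 6893 CPM with vehicle and to 7534, 7396 and 6666 CPM with esculetin, with 1 called higher, Angptl4, and 1 called lower, G6pc1. G6pc1, a phosphatase of glucose output named here after its values were seen, was at 923, 599.5 and 478 CPM with vehicle and at 256, 437 and 362 CPM with esculetin, a log2 fold change of -0.92 ± 0.24 (SE) with an unadjusted p-value of 0.00357. The part of the feeding state in the spread of vehicle 1 was not tested.

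The 9 genes called without vehicle 1 were Etfb, Abcd2, Acaa1b, Acot1, Acot3, Acot4, Cyp4a10, Cyp4a14 and Vnn1. Without both vehicle 1 and esculetin 3, an alternative chosen after seeing the data, these 9 genes were called again, where 1.6% of all tested genes were called higher. The libraries left out were picked from these same values, so these calls lend no support to a difference, and the log2 fold changes were 1.60 ± 0.27 for Cyp4a10 and 1.76 ± 0.36 for Cyp4a14 (SE). None of the 37 had an adjusted p-value under 0.05 in either comparison. Acads, Acaa1a, Etfb and Vnn1 kept an unadjusted p-value under 0.05 without any 1 library. These fits reuse the libraries of the full fit, in which these genes already had such a p-value. None of the 37 had an adjusted p-value under 0.05 without any 1 library.

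**Figure D4:**
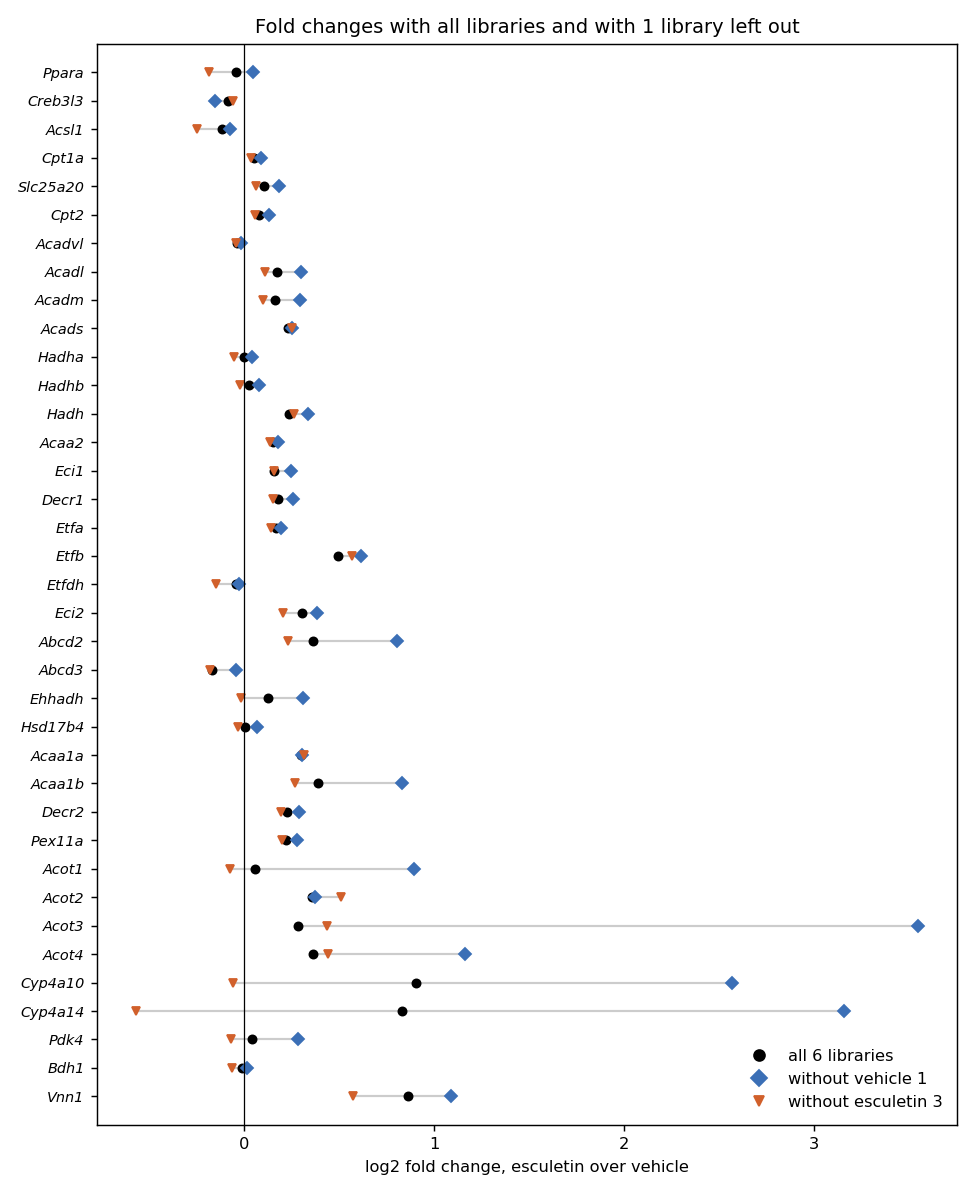
The log2 fold change, esculetin over vehicle, of the 37 genes with all 6 libraries in black, without vehicle 1 in blue and without esculetin 3 in orange, joined by a grey line. The symbols lie together for Acads, Acaa1a and Cpt1a and far apart for Cyp4a10, Cyp4a14, Acot1, Acot3 and Acot4. The value of 3.55 for Acot3 without vehicle 1 rests on vehicle libraries with 11 and 0 counts.

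Other genes of the pathway were taken as whole lists, 111 genes of which 105 were tested. Of these, 71 had a log2 fold change above 0 and 34 below 0, where 48.45% of all tested genes were above 0, and the median was 0.079. With an unadjusted p-value under 0.05, 16 were higher and 4 lower, beside 6.53% and 5.32% of all tested genes. In all 4 were called, 3 higher and 1 lower, beside 3.13% of all. By edgeR none had an adjusted p-value under 0.05. By DESeq2 2 had, Angptl4 and Pxmp2, with no filter on low counts 6 had, and with the replicate block 1 had, Angptl4. Without vehicle 3 1 had, Lpin1, and without vehicle 1 and esculetin 3 together 1 had, Cyp4a12a. The shares of all tested genes with such an adjusted p-value were not taken for these alternatives. Without vehicle 1 the number called was 8, of which 7 were higher, and without vehicle 2 it was 2, both higher, where 1.66% and 1.29% of all tested genes were called higher. The lists of further mitochondrial and peroxisomal genes share Mlycd, which was higher with an unadjusted p-value under 0.05 and is counted in each of them. The list of further mitochondrial oxidation genes held 7 of 17 with an unadjusted p-value under 0.05, all higher and none called. Further peroxisomal genes held 5 higher and 1 lower of 28, and further PPAR alpha targets 3 higher and 1 lower of 25. Fatty acid uptake and activation held 1 higher of 16, ketone bodies 1 higher and 1 lower of 7, and partners and coregulators of PPAR alpha 1 lower of 13.

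Angptl4, a secreted inhibitor of lipoprotein lipase and a PPAR target, rose in the esculetin group. It was at 60.0, 62.5 and 71.1 CPM with vehicle and at 117, 96.7 and 158 CPM with esculetin, with no overlap. This gave a log2 fold change of 0.94 ± 0.16 (SE) with an unadjusted p-value of 0.000155 and an edgeR adjusted p = 0.114, and it was called without any 1 library. Over the alternatives its adjusted p-value ran from 5.46e-12 with no filter on low counts to 0.473 without vehicle 2. With no filter the log2 fold change of Angptl4 was 0.95 ± 0.10 (SE), little changed but with a smaller SE for the same counts. Txnip, a thioredoxin-binding protein that responds to glucose, was at 36.2, 34.9 and 43.6 CPM with vehicle and at 44.9, 48.2 and 104 CPM with esculetin. Its log2 fold change of 0.78 ± 0.28 (SE), with an unadjusted p-value of 0.0184, rested on esculetin 3, without which it was 0.29 ± 0.11 and not called. Without vehicle 2 the p-value of Txnip was 0.0627. Acot6, a further thioesterase of the cluster on chromosome 12, was at 0.306, 0.368 and 0.292 CPM with vehicle and at 1.15, 0.634 and 0.478 CPM with esculetin, only 8 to 37 counts per library. Its log2 fold change was 1.21 ± 0.46 (SE) with an unadjusted p-value of 0.0263, and it was not called without esculetin 1, vehicle 1 or vehicle 3, where its p-values were 0.156, 0.0661 and 0.0703. Cyp4a12a, a male-biased omega-hydroxylase, was at 108, 235 and 254 CPM with vehicle and at 119, 93.1 and 151 CPM with esculetin. It was called lower at a log2 fold change of -0.72 ± 0.28 (SE) with an unadjusted p-value of 0.0296, although vehicle 1 lay within the esculetin range. The call was lost without esculetin 1, esculetin 2, vehicle 2 or vehicle 3, where the unadjusted p-value lay between 0.0646 and 0.12, and without vehicle 1 its log2 fold change was -1.01 ± 0.17. By limma-voom and by DESeq2 it was not called either, with unadjusted p-values of 0.0515 and 0.0652.

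Markers of other liver cells were summed beside these values. The summed macrophage markers, 6 genes, lay at 170.2 to 234 CPM with vehicle and at 173 to 185 CPM with esculetin, with 1 of the 6, Cd68, lower at an unadjusted p-value under 0.05. The 6 pericentral hepatocyte markers summed to 9233 to 11540 CPM and the 6 periportal ones to 6765 to 8168 CPM over all libraries, with Lgr5 of the first list lower at an unadjusted p-value under 0.05. The adipocyte markers, 5 genes of which 2 were tested and 1 was at 0 in all libraries, summed to 8.75 to 13.5 CPM, with 1, Cfd, called higher. The cholangiocyte markers, 5 genes, summed to 39.5 to 80.4 CPM with vehicle and to 30.3 to 45.7 CPM with esculetin. Most of that sum was Spp1, at 34.7, 57.7 and 75.5 CPM with vehicle and 39.0, 23.7 and 37.3 CPM with esculetin and called lower, while the other 4 had log2 fold changes above 0 and the median of the 5 was 0.24. The neutrophil markers, 4 genes of which 2 were tested and 1 was at 0, summed to 1.26 to 4.54 CPM with S100a9 called higher, and the 8 lymphocyte markers, 7 of them tested, to 6.37 to 10.4 CPM with Cd79a called higher. Of 4 pancreatic acinar markers 3 were at 0 and Cela2a, at 0.249 to 0.715 CPM, was called lower. The 3 erythroid markers summed to 109.8 to 166 CPM with Alas2 lower at an unadjusted p-value under 0.05. The 5 endothelial markers, at 143 to 178.7 CPM, and the 5 stellate markers, at 285.4 to 385.2 CPM, held none. All genes named from these lists were chosen after their values were seen. Their part in the values of the oxidation genes was not tested.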

How the data were processed

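Livers of 3 vehicle and 3 esculetin libraries were profiled by paired-end RNA sequencing. The authors aligned the reads with HISAT2 2.2.1 to GRCm39, with mm10 also listed in the submitters' processing notes, and deposited raw whole-number counts per gene from featureCounts. The release of the annotation, the strand setting and the treatment of reads with several matches are not given in the sources used here. Symbols and coordinates came from a GENCODE annotation of GRCm39, which matched 54749 of 55357 identifiers. Genes were kept with filterByExpr, scaled with TMM and tested in edgeR 4.0.16 (R 4.3.3, quasi-likelihood), fitted on all 14433 tested genes with Benjamini-Hochberg adjustment over them. Calls used the thresholds of the study's methods. No library was a copy of another of its group, since chi-square per gene was at least 26.26 between replicates.

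The 37 genes and all lists were chosen with earlier results of these data known. Library values were given for genes with an unadjusted p-value under 0.05 and for Ppara, Creb3l3, Cpt1a, Ehhadh, Acaa1b, Cyp4a10, Cyp4a14, Pdk4 and Bdh1, and wider-list genes were named where called. Library values of Acot3, Acot4 and Acsl1, and the promoters shown, were chosen after values were seen. Shared sequence was counted as 100-base stretches of the canonical transcript found in transcripts of other genes. Alternatives were DESeq2 1.42.0, limma-voom (limma 3.58.1), other scalings and count filters, each library left out and the replicate number as a block.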

Additional observations from a re-analysis of the deposited data

How the results depend on the processing

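The medians of the 16 mitochondrial and the 8 peroxisomal genes stayed above 0 in all alternatives and moved by less than 1 SD of the medians of the vehicle libraries, 0.0827 and 0.17. With 1 library left out they ran from 0.093, without vehicle 3, to 0.19 and from 0.15, without vehicle 2, to 0.30. The number of the 37 genes called was 1 under DESeq2, limma-voom, DESeq2 size factors, total counts, at least 10 counts in every library and the block, 3 with no filter on low counts and 0 at a fold change over 2. The number with an adjusted p-value under 0.05 was 1 under DESeq2, Acaa1a, and 3 with no filter, Vnn1, Etfb and Cyp4a10, and the number with an unadjusted one was 14 with no filter. With no filter the SE fell from 0.25 to 0.13 for Vnn1 and from 0.98 to 0.31 for Cyp4a14. It rose from 0.070 to 0.094 for Acads, and the log2 fold changes of these genes moved little. Shares of all tested genes were not taken for these settings, so the counts are not a result about the 37 genes. Of the wider lists, 2 genes were called under DESeq2, where Txnip and Cyp4a12a lost the call, as Cyp4a12a did under limma-voom, where 4 were called, all higher. With 1 library left out, and with vehicle 1 and esculetin 3 left out together, which was added after seeing the data, 0 to 9 of the 37 genes were called, 4 to 21 had an unadjusted p-value under 0.05, none had an adjusted one and 2 to 8 wider genes were called. Among the 18 of the 37 genes named by rule with library values, log2 fold changes changed sign only when 1 library was left out, with ranges of -0.19 to 0.070 for Ppara, -0.015 to 0.31 for Ehhadh, -0.056 to 2.57 for Cyp4a10, -0.57 to 3.16 for Cyp4a14, -0.14 to 0.29 for Pdk4 and -0.063 to 0.031 for Bdh1, and the cause was not tested. Of all 37 genes 13 changed sign in some alternative, the other 7 being Acot1 (-0.28 to 0.89), Acot3 (-0.29 to 3.70), Acsl1 (-0.25 to 0.042), Hadha (-0.052 to 0.042), Hadhb (-0.030 to 0.078), Etfdh (-0.15 to 0.010) and Hsd17b4 (-0.032 to 0.066), of which Hadha and Hsd17b4 did so under total counts as well, and Hadha under the filter of 10 counts per library. The replicate numbers do not pair the libraries by any label. Deviations of vehicle and esculetin libraries of the same number correlated at -0.069, -0.011 and 0.0027, and with the replicate block 1 of the 37 genes was called, 8 had an unadjusted p-value under 0.05 and 5 wider genes were called.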

Other observations

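Of the 105 genes tested from the wider lists, the groups did not overlap for 22 that were higher and 2 that were lower with esculetin, beside 9.2% and 8.24% of all tested genes. The 3 given here were not called and were picked after their values were seen. Bdh2, a cytosolic dehydrogenase related to Bdh1, was at 15.9, 16.4 and 15.5 CPM with vehicle and at 22.0, 19.6 and 19.9 CPM with esculetin, a log2 fold change of 0.36 ± 0.092 (SE, edgeR adjusted p = 0.203). Ncoa1, a coactivator of nuclear receptors, was at 17.8, 18.2 and 18.4 CPM with vehicle and at 12.8, 14.7 and 14.4 CPM with esculetin, a log2 fold change of -0.37 ± 0.098 (SE, edgeR adjusted p = 0.204). Slc16a6, which carries ketone bodies out of hepatocytes, was at 4.83, 5.25 and 4.67 CPM with vehicle and at 4.32, 3.66 and 2.54 CPM with esculetin, a log2 fold change of -0.49 ± 0.21 (SE, edgeR adjusted p = 0.398). Slc16a6 and Ncoa1 are the 2 lower ones.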
